A study of Mus musculus with 13 samples.

Results

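The 10 genes described here encode the cyclins, kinases and inhibitors that set the pace of the G1 phase of the cell cycle, together with the retinoblastoma protein on which they act: Ccnd1, Ccnd2, Ccnd3, Cdk4, Cdk6, Cdkn1b, Cdkn2c, Cdkn2d, Ccne1 and Rb1. They were picked by gene symbol from a table of 43629 mouse genes, and all 10 were among the 15872 genes with a normalised count of at least 10 in at least 3 libraries. Transcript levels were measured by RNA sequencing in 13 libraries. The groups were thymic lymphomas of 5 Atm-/- mice on the 129S6/SvEv strain, thymic lymphomas of 5 Rag2c/c p53-/- mice on a mixed C57BL/6 and 129S6/SvEv background, and thymuses of 3 WT C57BL/6 mice, whose libraries were re-used from another series. Each lymphoma came from a different mouse. Rag2c/c mice carry a RAG2 protein that lacks its C terminus and are also p53-deficient, whereas Atm-/- mice lack the kinase that signals DNA double-strand breaks. These are germline alleles, so every cell of the animal carries them. Ages were not given, and WT samples are thymuses while lymphoma samples are tumors with whatever host cells they contained. Library numbers of lymphomas are names only and pair nothing across groups.

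In G1, D-type cyclins bind Cdk4 or Cdk6, and the active kinases phosphorylate the retinoblastoma protein, which then releases E2F transcription factors. Cyclin E, itself an E2F target, takes over with Cdk2 and carries the cell into S phase. The INK4 inhibitors p18Ink4c (Cdkn2c) and p19Ink4d (Cdkn2d) bind Cdk4 and Cdk6, whereas p27Kip1 (Cdkn1b) restrains cyclin E-Cdk2 complexes. In the thymus, cyclin D3 is needed for the expansion of immature thymocytes, and p27 limits thymocyte numbers.

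The libraries differed in depth. In 6 of them 1 read was worth more than 1.2 normalised counts, which corresponds to an estimated 6.37 to 13.7 M reads, and the other 7 held at least 19.4 M. The shallowest library of each group was number 2 (WT thymus 2, Atm-/- lymphoma 2 and Rag2c/c p53-/- lymphoma 2). In these 3 libraries short genes were listed relatively higher than long ones. Relative to the other libraries of its group, Rag2c/c p53-/- lymphoma 2 had a median log2 difference of 0.58 over the shortest 25% of tested genes and of -0.46 over the longest 25%, against 0.37 and -0.32 for Atm-/- lymphoma 2 and 0.03 and -0.14 for WT thymus 2. Atm itself was listed at 208 to 732 in Atm-/- lymphomas and 1559 to 2274 in WT thymuses, but also at 439 to 1315 in Rag2c/c p53-/- lymphomas. Trp53 ranged from 2018 to 5461 in Rag2c/c p53-/- lymphomas, overlapping the 4387 to 6341 of WT thymuses, and from 6853 to 11318 in Atm-/- lymphomas, above both. The summed level of 6 T cell markers was 65031 to 105252 in WT thymuses, 56774 to 99878 in Atm-/- lymphomas and 54684 to 111215 in Rag2c/c p53-/- lymphomas, with 0 of 6 markers called in either lymphoma group against WT at the limma threshold given next (1 of 6 in each reached an adjusted p under 0.05 at a smaller fold).

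The question put to the data was which G1 regulators differed between each lymphoma genotype and normal thymus, and between the genotypes. A gene was called when its Benjamini-Hochberg adjusted p from limma over all 15872 genes was under 0.05, its fitted log2 fold change was at least 1 in size and its mean was at least 10 in 1 of the groups compared. In Atm-/- lymphomas against WT thymus, 5 of the 10 genes were called, 2 higher (Ccne1 and Cdk4) and 3 lower (Ccnd2, Cdkn1b and Rb1), where 29.5% of all tested genes were called (12.6% higher and 17.0% lower). At any fold, 7 of 10 had an adjusted p under 0.05, against 44.6% of all genes. Among the same genes 3 of 10 were called in Rag2c/c p53-/- lymphomas, Ccnd1 higher and Ccnd2 and Cdkn1b lower, where 23.6% of all genes were called (9.77% higher and 13.9% lower), and 8 of 10 had an adjusted p under 0.05 at any fold, against 37.3% of all genes. Both comparisons use the same 3 WT thymuses. Between the lymphoma genotypes, 2 of 10 were called, Ccnd1 lower and Ccnd2 higher in Atm-/- lymphomas, where 7.84% of all genes were called (3.51% higher and 4.33% lower), and these 2 were also all that had an adjusted p under 0.05, against 11.6% of all genes. The median log2 fold change of the 10 genes was -0.43, -0.30 and -0.14 in these 3 comparisons, and that of all tested genes was -0.019, -0.018 and 0.022. Without the 3 shallowest libraries the counts were 7, 3 and 0 of 10 (a setting chosen after the data were seen). The share of all genes called in that setting is not given here, so these counts cannot be set against it. The 3 genes then called in Rag2c/c p53-/- lymphomas were Ccnd2, Cdkn1b and Cdkn2c, not Ccnd1. As these are bulk samples, fewer cells of a type and less RNA per cell cannot be told apart.

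**Figure D1:**
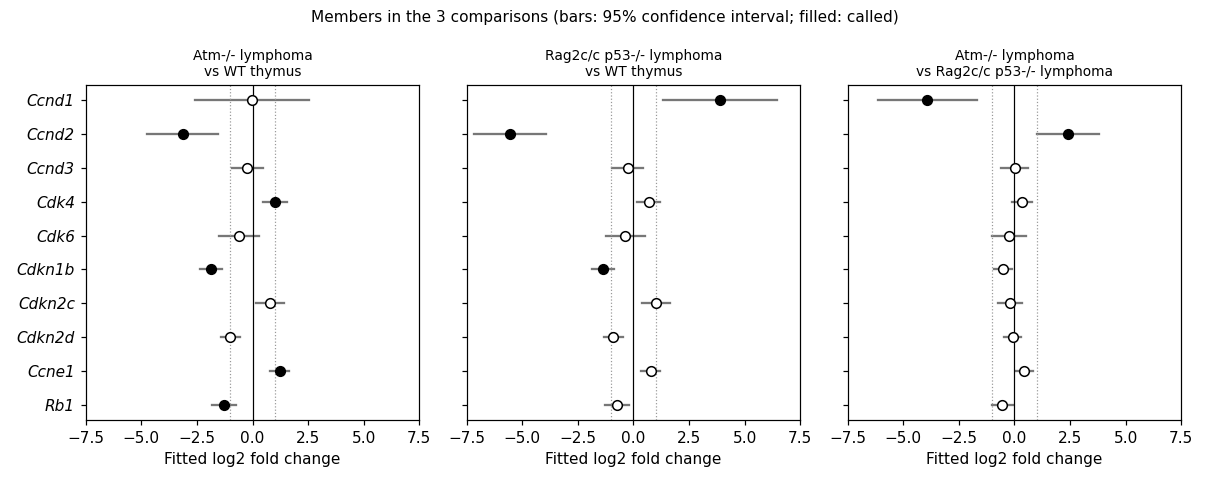
Fitted log2 fold change (horizontal axis) of the 10 genes in the 3 comparisons, with 95% confidence intervals as bars; filled points mark called genes and dotted lines a log2 fold change of 1 in either direction. Ccnd2 lay at -3.14 and -5.56 against WT thymus, the lowest points of the first and second panels, and Ccnd1 had the widest intervals.

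Cyclin D1 is rarely used by normal T lineage cells, where cyclins D2 and D3 prevail. The Ccnd1 gene (ENSMUSG00000070348, chromosome 7 from 144929931 to 144939869, GRCm38) had normalised counts of 250, 162 and 299 in normal thymus. Rag2c/c p53-/- lymphomas 1 to 5 had 5986, 7248, 1290, 1939 and 4476. All 5 lay above every WT thymus, and the mean rose 14.9-fold on the fitted scale (log2 fold change 3.90, SE 1.19, 95% confidence interval 1.33 to 6.47, adjusted p = 0.021, limma). The call was lost without any 1 of the 3 thymuses, with log2 fold changes of 3.65 to 4.09 and adjusted p of 0.0545 to 0.0748. It was also lost without the 3 shallowest libraries, at a log2 fold change of 3.38 (adjusted p = 0.0725). Of 16 alternative settings 12 kept the call, and over all 16 the adjusted p ran from 0.000873 to 0.0748 (limma). The main fit pooled the spread over the 3 groups. The SD of the log2 values was 0.45 in WT thymuses, 1.07 in these lymphomas and 2.79 in Atm-/- lymphomas.

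Atm-/- lymphomas split widely over Ccnd1, with 282, 27, 3068, 41 and 583 normalised counts in lymphomas 1 to 5. Lymphomas 2 and 4 were below every WT thymus, lymphomas 3 and 5 were above, and lymphoma 1 was within the WT range. The highest value was 114 times the lowest, and the SD of the log2 values, 2.79, exceeded that of 99.1% of all tested genes in this group. The fitted difference from WT was -0.03 (95% confidence interval -2.59 to 2.54, adjusted p = 0.987, limma), so a mean shift was not detectable in 5 tumors that differed this much. Its sign changed with the setting, from -0.97 to 0.73 when libraries were left out in turn.

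Against Rag2c/c p53-/- lymphomas, Ccnd1 was 15.2-fold lower in Atm-/- lymphomas (log2 fold change -3.93, SE 1.03, adjusted p = 0.0265, limma), although the groups overlapped through Atm-/- lymphoma 3. The call was lost when only these groups entered the fit (adjusted p = 0.0604), when Atm-/- lymphoma 4 or Rag2c/c p53-/- lymphoma 1, 2 or 5 was left out (adjusted p 0.0509 to 0.0642) and without the 3 shallowest libraries (log2 fold change -2.91, adjusted p = 0.106).

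Fibroblasts can also express Ccnd1, and fibroblast markers were higher in the lymphomas. Of 6 markers, 5 were called higher in the Atm-/- group and 4 in the Rag2c/c p53-/- group. Their summed level was 204 to 218 in WT thymuses, 3783 to 18172 in Atm-/- lymphomas and 642 to 2336 in Rag2c/c p53-/- lymphomas, and none of the 6 was at 0 in any library. By library the sums were 5590, 3783, 5252, 18172 and 9228 in Atm-/- lymphomas 1 to 5 and 1228, 642, 2336, 1364 and 897 in Rag2c/c p53-/- lymphomas 1 to 5. Other host cell lists were read as well. Summed myeloid markers were at 4198 to 5358 in WT thymuses, 6787 to 11959 in Atm-/- lymphomas (3 of 6 called higher) and 4009 to 8608 in Rag2c/c p53-/- lymphomas (1 of 6). Thymic epithelium markers summed to 725 to 1058, 189 to 609 (3 of 6 called lower) and 287 to 1320 (4 of 6 called lower), with Psmb11 at 0 in 9 of the 10 lymphomas and Foxn1 at 0 in Atm-/- lymphomas 2 and 3. Myeloid and thymic epithelium sums overlapped WT in Rag2c/c p53-/- lymphomas but not in Atm-/- lymphomas. Of all tested genes, 12.6% were called higher and 17.0% lower in the Atm-/- group. In the Rag2c/c p53-/- group 9.77% were called higher and 13.9% lower. The part of these host cells in the Ccnd1 values, or in those of the other members, was not tested.

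The exons of Ccnd1 share 1100 bases with the oppositely oriented gene Lto1 (listed as Oraov1), whose means were 643, 465 and 393 in WT thymuses, Atm-/- and Rag2c/c p53-/- lymphomas. Whether strand was used in counting is not given in the sources used here. The 21 tested genes nearest to Ccnd1, which lies near the end of chromosome 7, had a median log2 difference from the WT mean of -0.24 to 0.17 per library in Rag2c/c p53-/- lymphomas, where Ccnd1 itself was at 2.48 to 4.97. In Atm-/- lymphomas their median was 0.18 to 0.90, above each WT thymus, and Ccnd1 was at -3.04 to 3.73.

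Ccnd2 (ENSMUSG00000000184, chromosome 6 from 127125779 to 127151048) encodes cyclin D2, which lymphocytes induce on growth factor and antigen receptor signals. It was strongly expressed in WT thymuses, at 6236, 5717 and 6642 normalised counts. Atm-/- lymphomas 1 to 5 had 1878, 1471, 510, 109 and 1088. Rag2c/c p53-/- lymphomas 1 to 5 had 158, 274, 143, 53 and 115. Every lymphoma lay below every WT thymus, and the lowest Atm-/- library fell within the range of Rag2c/c p53-/- lymphomas.

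On the fitted scale Ccnd2 fell 8.83-fold in Atm-/- lymphomas (log2 fold change -3.14, SE 0.75, adjusted p = 0.00432, limma) and 47.0-fold in Rag2c/c p53-/- lymphomas (log2 fold change -5.56, SE 0.75, adjusted p = 0.000144). These calls were kept when any 1 library was left out, with log2 fold changes of -3.50 to -2.47 and -5.82 to -5.23. Between the genotypes Ccnd2 was 5.33-fold higher in Atm-/- lymphomas (log2 fold change 2.41, SE 0.65, 95% confidence interval 1.02 to 3.80, adjusted p = 0.0286). That last call was lost with only these groups in the fit (adjusted p = 0.0674), without Atm-/- lymphoma 1, 2 or 5 or Rag2c/c p53-/- lymphoma 4 or 5 (adjusted p 0.0571 to 0.0713) and without the 3 shallowest libraries (adjusted p = 0.0638).

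Cyclin D2 is also made by B cells and by particular thymocyte stages, so the markers of both are given beside it. Of 6 B cell markers, 4 were called lower in the Atm-/- group and 5 in the Rag2c/c p53-/- group. Their summed level was 10193 to 14147 in WT thymuses, 2324 to 27368 in Atm-/- lymphomas and 1381 to 22361 in Rag2c/c p53-/- lymphomas, with Ms4a1 at 0 in Atm-/- lymphoma 4 and Pax5 at 0 in Rag2c/c p53-/- lymphoma 4. In WT thymuses Ms4a1 was at 179 to 293, where Ccnd2 was at 5717 to 6642. The thymocyte stage list summed to 106248 to 161374 in WT thymuses, 27945 to 71777 in Atm-/- and 45364 to 68208 in Rag2c/c p53-/- lymphomas, with 3 and 1 of its 6 genes called lower (17.0% and 13.9% of all genes were) and none at 0. Single markers ran otherwise: Ighm was highest, at 27278, in Atm-/- lymphoma 4, where Ccnd2 was 109, and Il2ra and Ptcra reached 17248 and 8050 in Atm-/- lymphoma 2, above WT. Their part in the Ccnd2 result was not tested. The tested neighbours of Ccnd2, 20 on each side, had a median difference of 0.06 to 0.26 in Atm-/- and 0.00 to 0.40 in Rag2c/c p53-/- lymphomas, and the antisense gene 9330179D12Rik, which shares 368 exonic bases, averaged 9, 3 and 0.2 normalised counts in WT, Atm-/- and Rag2c/c p53-/- samples.

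Ccnd3 (ENSMUSG00000034165, chromosome 17 from 47505051 to 47599691), the main D cyclin of thymocytes, stayed high throughout. WT thymuses had 15468, 25377 and 15346 normalised counts. Atm-/- lymphomas 1 to 5 had 7919, 30135, 19719, 13599 and 13373. Rag2c/c p53-/- lymphomas had 14423, 15789, 14007, 17281 and 15231. The groups overlapped in every comparison, and the log2 fold changes against WT were -0.24 (95% confidence interval -0.94 to 0.45) and -0.25 (-0.95 to 0.45), neither called (adjusted p = 0.559 and 0.572, limma). Among Rag2c/c p53-/- lymphomas its log2 values had an SD of 0.12, a spread that only 2.12% of tested genes undercut. The highest values of the other groups, 25377 and 30135, were in the shallow libraries numbered 2.

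**Figure D2:**
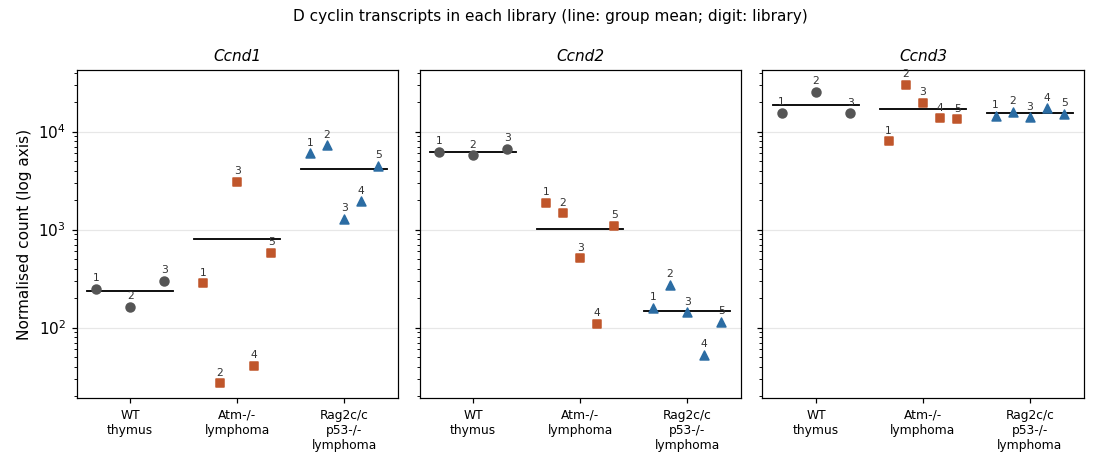
Normalised counts (log axis) of Ccnd1, Ccnd2 and Ccnd3 in the 13 libraries by group; digits name the library and lines give group means. Ccnd1 spreads from 27 to 3068 among Atm-/- lymphomas and lies at 1290 or more in Rag2c/c p53-/- lymphomas, Ccnd2 is at most 1878 in lymphomas, and Ccnd3 overlaps between groups.

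Dividing each count by the exonic length of its gene allows the D cyclins to be set beside each other as levels. The sum of the 3 was 2479 to 3534 normalised counts per kb in WT thymuses, 1162 to 3596 in Atm-/- and 1885 to 3368 in Rag2c/c p53-/- lymphomas, so the total overlapped between groups while its makeup differed. Ccnd3 was the largest share in each of the 13 libraries: 69.4 to 81.8% in WT thymuses, 76.1 to 98.7% in Atm-/- and 53.4 to 84.7% in Rag2c/c p53-/- lymphomas. Ccnd2 made up 17.2 to 28.0% in WT thymuses, 0.738 to 17.2% in Atm-/- lymphomas and 0.236 to 0.865% in Rag2c/c p53-/- lymphomas. The share of Ccnd1 was 0.973 to 2.52% in WT thymuses, 0.159 to 22.1% in Atm-/- lymphomas and 14.5 to 45.7% in Rag2c/c p53-/- lymphomas, the last without overlap with WT.

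The level of Ccnd1 per kb exceeded that of Ccnd2 in 0 of 3 WT thymuses, in 2 of 5 Atm-/- lymphomas (3 and 5) and in 5 of 5 Rag2c/c p53-/- lymphomas. The ratio of Ccnd1 to Ccnd2 per kb was 0.0566 to 0.0899 in WT thymuses, 0.0367 to 12 in Atm-/- lymphomas and 18.0 to 77.8 in Rag2c/c p53-/- lymphomas. In Atm-/- lymphomas 2 and 4 both Ccnd1 and Ccnd2 were small, and Ccnd3 made up 95.5% and 98.7% of the sum.

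**Figure D3:**
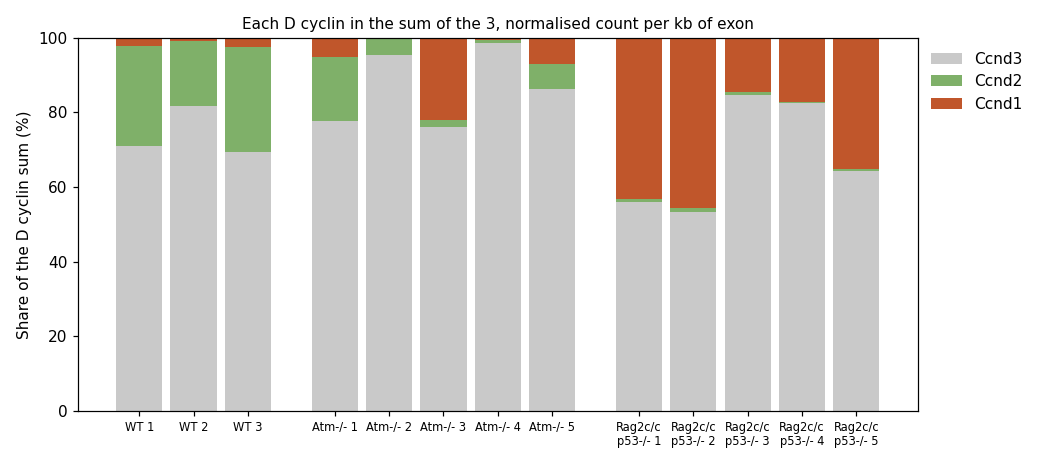
Share (%) of Ccnd3, Ccnd2 and Ccnd1 in the sum of the 3 D cyclins, each as normalised counts per kb of exon, in each of the 13 libraries. Ccnd2 is the second share in WT thymuses (17.2 to 28.0%), Ccnd1 takes its place in all Rag2c/c p53-/- lymphomas (14.5 to 45.7%), and Atm-/- lymphomas are mixed.

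Cdk4 (ENSMUSG00000006728, chromosome 10 from 127063534 to 127067920) encodes the kinase partner shared by the D cyclins. Normalised counts were 4024, 4990 and 4060 in WT thymuses. Atm-/- lymphomas 1 to 5 had 7514, 11007, 9206, 9344 and 7428, all above every WT thymus. Rag2c/c p53-/- lymphomas had 4745, 11206, 5472, 8943 and 6210, of which the lowest lay within the WT range. The increase in Atm-/- lymphomas was 2.03-fold (log2 fold change 1.02, SE 0.25, 95% confidence interval 0.49 to 1.56, adjusted p = 0.005, limma). It sat at the fold threshold, and without WT thymus 1 or 3 or Atm-/- lymphoma 2 or 4 it was 0.94 to 1.0 with an adjusted p of 0.0102 to 0.0265. The log2 fold change in Rag2c/c p53-/- lymphomas was 0.68 (SE 0.25, adjusted p = 0.0455), under the fold threshold.

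In every group the highest Cdk4 count was that of the shallowest library, number 2. Without these 3 libraries the log2 fold change was 1.04 (adjusted p = 0.00473) in the Atm-/- group and 0.61 (adjusted p = 0.0595) in the Rag2c/c p53-/- group. The oppositely oriented gene Tspan31, which shares 641 exonic bases with Cdk4, averaged 517, 1009 and 366 normalised counts in WT, Atm-/- and Rag2c/c p53-/- samples.

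The promoters of both kinases are printed because Myc, a transcription factor that binds the E-box CACGTG with its partner Max and is known to act on Cdk4, was called higher in both lymphoma genotypes. Myc had 2495, 2985 and 2500 normalised counts in WT thymuses, 5936 to 11860 in Atm-/- lymphomas (log2 fold change 1.62, SE 0.20, adjusted p = 4.9e-05, limma) and 5968 to 8055 in Rag2c/c p53-/- lymphomas (1.38, SE 0.20, adjusted p = 0.000233). RefSeq sequences from 250 bases before to 50 bases after the start site (GRCm38.p6) were matched for 7 of the 10 genes, all but Ccnd1, Ccnd2 and Rb1. The sequences below run 5′ to 3′ on the plus strand, with each CACGTG in capitals. Those of Cdk4 (chr10:127063285-127063584) and Cdk6 (chr5:3343643-3343942) read:
Cdk4: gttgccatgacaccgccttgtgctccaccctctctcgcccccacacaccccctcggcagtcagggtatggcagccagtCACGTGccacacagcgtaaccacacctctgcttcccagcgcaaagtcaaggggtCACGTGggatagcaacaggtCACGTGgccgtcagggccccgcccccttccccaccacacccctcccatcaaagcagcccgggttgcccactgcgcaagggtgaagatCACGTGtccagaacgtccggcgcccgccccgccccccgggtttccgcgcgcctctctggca
Cdk6: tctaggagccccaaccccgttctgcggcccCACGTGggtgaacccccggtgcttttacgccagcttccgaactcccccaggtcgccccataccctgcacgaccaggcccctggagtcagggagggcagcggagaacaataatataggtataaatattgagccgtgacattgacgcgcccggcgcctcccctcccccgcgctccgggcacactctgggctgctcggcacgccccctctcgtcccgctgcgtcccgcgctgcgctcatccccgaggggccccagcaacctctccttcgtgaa

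The Cdk4 promoter held CACGTG 4 times, with first bases at -172, -118, -98 and -11 relative to the start site, and that of Cdk6 held it once, at -220. Of 32851 RefSeq promoters of this length, 7.15% held CACGTG at least once and 8 (0.0244%) held it at least 4 times. The sequence is the same on both strands. Among the other members, 1 of 2 Cdkn2c promoters held 1 copy, at 35. The E2F octamers TTTCCCGC, TTTCGCGC, TTTGCCGC and TTTGGCGC, searched on both strands, were in none of the members' windows and in 2.26% of all promoters. A match describes the letters of these windows only. The part of Myc in the Cdk4 or Cdk6 values was not tested.

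Cdk6 (ENSMUSG00000040274, chromosome 5 from 3343893 to 3523218), the other D cyclin-dependent kinase, was less abundant. WT thymuses had 1366, 988 and 1553 normalised counts, Atm-/- lymphomas 1486, 651, 687, 899 and 702, and Rag2c/c p53-/- lymphomas 2740, 753, 820, 963 and 609. Atm-/- lymphoma 1 and Rag2c/c p53-/- lymphoma 1 stood above the rest of their groups, and all groups overlapped. Log2 fold changes were -0.61 (95% confidence interval -1.49 to 0.28, adjusted p = 0.245, limma) and -0.36 (-1.25 to 0.53, adjusted p = 0.52), neither called. In Rag2c/c p53-/- lymphoma 1 Cdk6 was 1.1 above the WT mean on the log2 scale, whereas the median of its 21 neighbours was 0.15. Per kb of exon, the level of Cdk4 was 11.3 to 21.7 times that of Cdk6 in WT thymuses, 21.8 to 72.8 times in Atm-/- lymphomas and 7.46 to 64.1 times in Rag2c/c p53-/- lymphomas.

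Among the inhibitors, Cdkn1b (ENSMUSG00000003031, chromosome 6 from 134920401 to 134925513) was called lower in both genotypes. Its normalised counts were 6279, 8173 and 5810 in WT thymuses, 1738, 2569, 1472, 2102 and 1445 in Atm-/- lymphomas, and 3158, 3073, 2945, 1819 and 2310 in Rag2c/c p53-/- lymphomas. No lymphoma reached the lowest WT thymus, and the lymphoma groups overlapped. The decrease was 3.67-fold in Atm-/- lymphomas (log2 fold change -1.88, SE 0.23, adjusted p = 4.45e-05, limma) and 2.56-fold in Rag2c/c p53-/- lymphomas (-1.36, SE 0.23, adjusted p = 0.000632). With any 1 library left out it ranged from -2.0 to -1.73 and from -1.46 to -1.21. The difference between the genotypes, -0.52 (95% confidence interval -0.94 to -0.09, adjusted p = 0.111), was not called. Neighbouring genes on chromosome 6 had a median of -0.66 to -0.23 in Atm-/- lymphomas and of -0.47 to 0.03 in Rag2c/c p53-/- lymphomas, against -2.21 to -1.38 and -1.88 to -1.08 for Cdkn1b itself.

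The INK4 genes had fitted changes of opposite sign. Cdkn2d (ENSMUSG00000096472, chromosome 9 from 21288463 to 21291209) had 2143, 2355 and 2052 normalised counts in WT thymuses. In Atm-/- lymphomas the counts were 961, 1642, 940, 1072 and 1014, and in Rag2c/c p53-/- lymphomas 1332, 1456, 1139, 1056 and 920. All lymphomas were below all WT thymuses, and log2 fold changes of -0.99 (SE 0.20, adjusted p = 0.00151, limma) and -0.90 (SE 0.20, adjusted p = 0.00344) fell just short of the fold threshold. In Atm-/- lymphomas the value passed it without lymphoma 2 (-1.13), the shallow library with the highest count. It was also passed without WT thymus 3, without the 3 shallowest libraries and with size factors computed again. The chromosomal neighbours of Cdkn2d had medians of 0.25 to 0.55 in Atm-/- and -0.07 to 0.65 in Rag2c/c p53-/- lymphomas.

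Cdkn2c (ENSMUSG00000028551, chromosome 4 from 109660876 to 109667189) had 1075, 1212 and 1027 normalised counts in WT thymuses. Atm-/- lymphomas had 1988, 1274, 1897, 2102 and 2503, all above WT. Rag2c/c p53-/- lymphomas had 3125, 1199, 2422, 3086 and 1829, of which library 2, a shallow one, lay within the WT range. Log2 fold changes were 0.79 (SE 0.29, adjusted p = 0.0398, limma) and 0.995 (SE 0.29, adjusted p = 0.0165), not called by the fold threshold. Without the 3 shallowest libraries they were 1.01 (adjusted p = 0.00465) and 1.28 (adjusted p = 0.0022), past it. With 1 library left out, the Atm-/- value was 0.69 to 0.94 (adjusted p 0.0165 to 0.121, limma). The Rag2c/c p53-/- value was then 0.87 to 1.21 (adjusted p 0.00173 to 0.0662), past the threshold without WT thymus 2 or without lymphoma 2 or 5.

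Ccne1 (ENSMUSG00000002068, chromosome 7 from 38097984 to 38107534) encodes cyclin E1, the partner of Cdk2. WT thymuses were nearly identical, at 688, 708 and 682 normalised counts. Atm-/- lymphomas had 1777, 1162, 1577, 1858 and 1800, and Rag2c/c p53-/- lymphomas 1161, 1165, 1278, 1624 and 830. All 10 lymphomas exceeded all WT thymuses. The gene rose 2.33-fold in Atm-/- lymphomas (log2 fold change 1.22, SE 0.21, adjusted p = 0.000446, limma), and this call was kept with any 1 library left out (1.17 to 1.34). For Rag2c/c p53-/- lymphomas the log2 fold change was 0.77 (SE 0.21, adjusted p = 0.0101), under the fold threshold. The difference between the genotypes was 0.44 (95% confidence interval 0.06 to 0.83, adjusted p = 0.127).

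Rb1 (ENSMUSG00000022105, chromosome 14 from 73183673 to 73325822), the substrate of these kinases and a brake on E2F, had 3537, 3440 and 3720 normalised counts in WT thymuses. Atm-/- lymphomas had 1150, 1203, 2026, 1427 and 1688, and Rag2c/c p53-/- lymphomas 2844, 1290, 2568, 1843 and 2589. No lymphoma reached WT levels. Rb1 fell 2.43-fold in Atm-/- lymphomas (log2 fold change -1.28, SE 0.25, adjusted p = 0.00126, limma), also with any 1 library left out (-1.40 to -1.19). In Rag2c/c p53-/- lymphomas the log2 fold change was -0.74 (SE 0.25, adjusted p = 0.0341), under the fold threshold.

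The chromosome 14 neighbours of Rb1 were themselves low in Atm-/- lymphomas, with a median log2 difference from WT of -1.03 to -0.42 per library, where Rb1 was at -1.63 to -0.81. The same neighbours in Rag2c/c p53-/- lymphomas stayed at -0.01 to 0.10, where Rb1 was at -1.47 to -0.33. The part of the neighbourhood in the Rb1 decrease was not tested. Exons of Rb1 overlap 2 genes on the opposite strand, Rcbtb2 (488 bases; means of 4705, 2983 and 9460 in WT, Atm-/- and Rag2c/c p53-/- samples) and Lpar6 (408 bases; 2851, 653 and 1222).

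**Figure D4:**
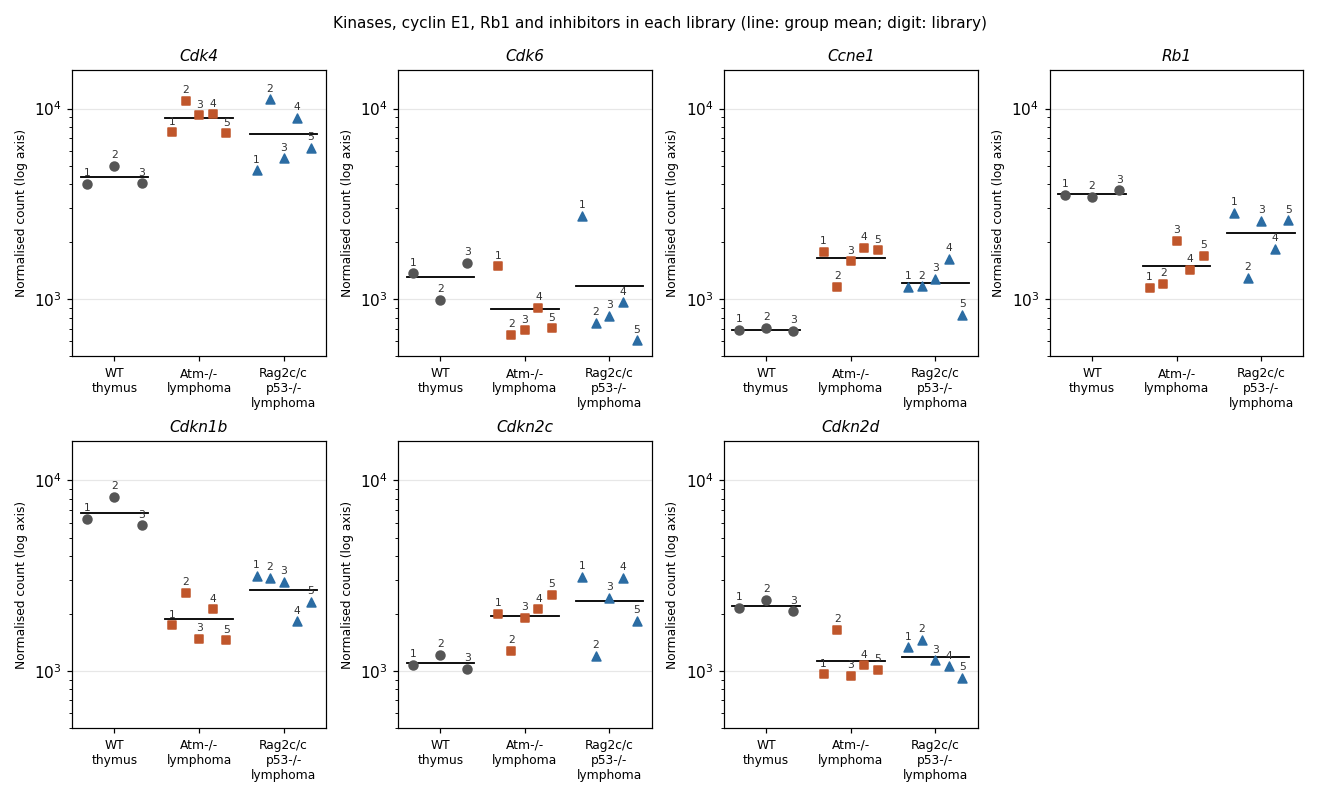
Normalised counts (log axis) of Cdk4, Cdk6, Ccne1, Rb1, Cdkn1b, Cdkn2c and Cdkn2d in the 13 libraries by group; digits name the library and lines give group means. Cdkn1b, Cdkn2d and Rb1 lie below all WT thymuses in every lymphoma, Ccne1 above all of them, and library 2 of each group is highest for Cdk4 and Cdkn2d.

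**Figure D5:**
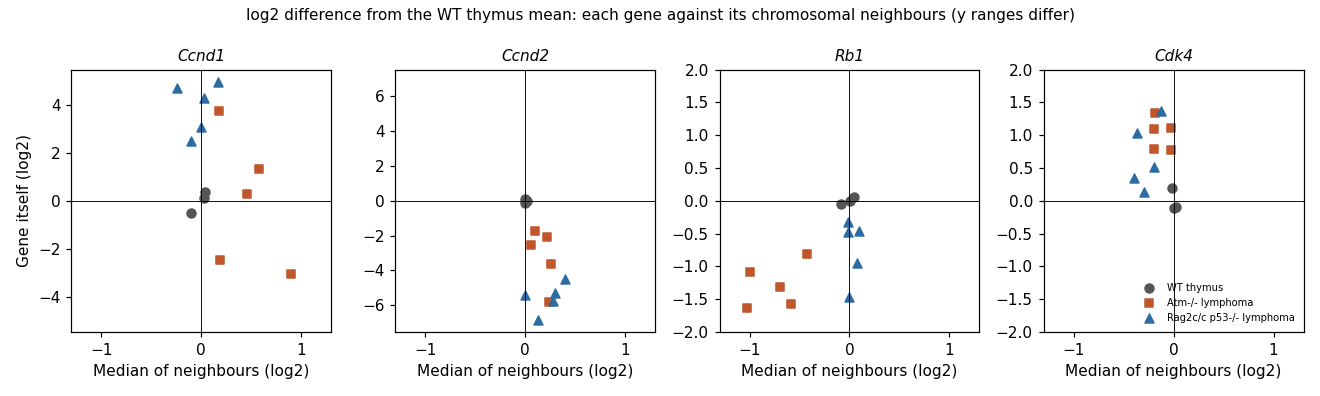
For Ccnd1, Ccnd2, Rb1 and Cdk4, the log2 difference of each library from the WT thymus mean (vertical axis, ranges differ) against the median of the same difference over up to 20 tested genes on each side on the chromosome (horizontal axis); each point is 1 library. Only the panel of Rb1 shows neighbours of Atm-/- lymphomas all below -0.40, and the Ccnd1, Ccnd2 and Cdk4 neighbours of all libraries stay between -0.40 and 0.90.

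Groups were also compared by whether their ranges overlapped. Set against WT thymus, 7 of 10 genes did not overlap in Atm-/- lymphomas (51.3% of all tested genes), 3 higher (23.4%) and 4 lower (27.9%). For Rag2c/c p53-/- lymphomas the count was 6 (43.9%), 2 higher (19.7%) and 4 lower (24.2%). Between the lymphoma genotypes the ranges of all 10 genes overlapped, whereas 8.33% of tested genes were free of overlap, 3.85% higher and 4.48% lower in Atm-/- lymphomas.

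Ordered by mean level per kb, Ccnd3 led in WT thymuses at 2135 ± 656 (SD, n = 3), followed by Cdkn1b at 1483 ± 275, Cdkn2d at 1387 ± 98.6 and Cdk4 at 1342 ± 168, whose ranges overlapped from each to the next. Ccnd2 (659 ± 49.3) and Rb1 (593 ± 23.7) overlapped each other below these, and then came Cdkn2c (411 ± 35.7), Ccne1 (260 ± 5.13), Cdk6 (93.1 ± 20.6) and Ccnd1 (50.3 ± 14.8), each apart from its neighbours in the order. In Atm-/- lymphomas Cdk4 came first at 2739 ± 457 (SD, n = 5) and Cdk6 last at 63.3 ± 25, and each gene overlapped the next. In Rag2c/c p53-/- lymphomas Cdk4 (2251 ± 829, SD, n = 5) and Ccnd3 (1749 ± 146) overlapped at the top, Ccnd1 came next at 889 ± 543, and Ccnd2 was last at 15.8 ± 8.59, below the range of Cdk6 (84.1 ± 63.1).

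The wider G1/S machinery was read from 30 other genes, all tested. Atm-/- lymphomas had 7 called higher and 2 lower (median log2 fold change 0.50), a share close to the 29.5% of all tested genes. Rag2c/c p53-/- lymphomas had 8 called higher and 1 lower (0.36), where 23.6% of all genes were called. Between the genotypes 0 were called higher and 3 lower in Atm-/- lymphomas (0.03), where 7.84% of all genes were. Cdkn1c, which encodes the p27 relative p57Kip2, had 99, 120 and 96 normalised counts in WT thymuses, 350 to 2745 in Atm-/- and 355 to 1843 in Rag2c/c p53-/- lymphomas (log2 fold changes 2.96, SE 0.61, adjusted p = 0.00174 and 3.23, SE 0.61, adjusted p = 0.00134, limma). Cdkn2a, the gene of p16Ink4a and p19Arf, was listed at 3 to 4 in WT thymuses, 213 to 3808 in Atm-/- and 3759 to 6197 in Rag2c/c p53-/- lymphomas. Its neighbour Cdkn2b (p15Ink4b) was at 3 to 12, 8 to 26 and 34 to 76, higher in Rag2c/c p53-/- than in Atm-/- lymphomas without overlap (adjusted p = 0.0106).

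E2f7, a repressor of E2F targets, fell in Atm-/- lymphomas, from 393 to 421 normalised counts in WT thymuses to 23 to 301 (log2 fold change -2.35, SE 0.72, adjusted p = 0.0175, limma). Skp2 and Cks1b, the subunits that target p27 protein for degradation, were chosen here after their values were seen because Cdkn1b fell. Skp2 rose in Atm-/- lymphomas (log2 fold change 1.22, SE 0.22, adjusted p = 0.000755) and in Rag2c/c p53-/- lymphomas (1.1, SE 0.22, adjusted p = 0.00202). Cks1b rose on the log2 scale by 1.56 (SE 0.22, adjusted p = 0.000119) and 1.21 (SE 0.22, adjusted p = 0.00102). On the same scale Rbl2, the gene of the Rb relative p130, fell by 1.13 (SE 0.33, adjusted p = 0.0134) and 1.17 (SE 0.33, adjusted p = 0.0134). Without the 3 shallowest libraries 7 of the 30 genes were called in the Atm-/- group and 8 in the Rag2c/c p53-/- group, all of them higher, so the E2f7 and Rbl2 calls were lost. Without Rag2c/c p53-/- lymphoma 4 alone, 5 were called in that group. The shares of all genes called with these libraries left out are not given here.

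Of 10 factors known to induce or repress D cyclins, 2 were called in the Atm-/- group and 1 in the Rag2c/c p53-/- group, against 29.5% and 23.6% of all genes. Myc was called higher in both genotypes, and 1 further gene was called lower in Atm-/- lymphomas: Foxo1, an activator of Cdkn1b and repressor of D cyclins (log2 fold change -1.11, SE 0.32, adjusted p = 0.0121, limma), whose range still overlapped WT. Between the genotypes Il7r, the receptor chain for IL-7, was called, with 2860 to 7078 normalised counts in Atm-/- and 188 to 1967 in Rag2c/c p53-/- lymphomas (log2 fold change 2.52, SE 0.56, adjusted p = 0.0114). Of 16 E2F target genes of DNA replication, 4 were called higher in Atm-/- lymphomas, led by Tk1 (log2 fold change 1.40, SE 0.19, adjusted p = 9.89e-05), with Tyms at 1.16, and 1 in Rag2c/c p53-/- lymphomas, Cdc6 (1.29, SE 0.25, adjusted p = 0.00167). None was called lower, and the list medians were 0.86 and 0.72. Over all genes 12.6% and 9.77% were called higher, so the count in Rag2c/c p53-/- lymphomas was below the share of all genes. At any fold, 13 and 11 of the 16 had an adjusted p under 0.05 (limma), against 44.6% and 37.3% of all genes. For 12 and 11 of them every lymphoma of the genotype lay above every WT thymus, against 23.4% and 19.7% of all genes. Of 6 genes of dividing cells only Aurkb was called, higher in both genotypes (1.16 and 1.26), with list medians of 0.56 and 0.54.

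Likeness of pattern was measured over the 13 libraries as the root mean square difference between log2 profiles scaled to unit SD, where smaller is more alike. Closest to Cdk4 were Smarcb1 (0.154), Mrpl4 (0.157) and Banf1 (0.178). Closest to Ccnd1 were Gm11650 (0.321), Rapgef4 (0.333) and Zfp385c (0.334), and closest to Ccnd2 were Cd48 (0.290), Siglech (0.340) and Trim12c (0.384). Rapgef4 averaged 271, 348 and 1344 normalised counts in WT, Atm-/- and Rag2c/c p53-/- samples, and Cd48 averaged 1384, 1002 and 681. Tm4sf5 (0.277), Dlg4 (0.278) and Fam63b (0.292) were closest to Cdkn1b. Cdk6 had no gene closer than Rint1 (0.564).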

How the data were processed

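RNA from single-cell suspensions was sequenced as stranded polyA libraries. Per the submitters' processing notes, bcl2fastq 1.8.3, STAR 2.4.0g1, Picard and DESeq2 1.6.3 were used with mm10 (GRCm38); the read counter and annotation release are not given in the sources used here. The deposited values are scores, counts that the authors divided by size factors and rounded to whole numbers. Column totals were 19788898 to 21591289. The table's own fold changes and p-values were not used.

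Here limma 3.58.1 (R 4.3.3; trend, robust) modelled log2(value + 1) with 1 term per group, using all 13 libraries. Fold changes are on that scale, which understates changes of low genes, and adjusted p-values cover all genes tested. Strain and series go with the groups, so they cannot be told apart from genotype. In simulated data of the Atm-/- against WT comparison over 15872 genes, 23% of 100 genes changed 2-fold and 74% of 100 changed 4-fold were called, with 7 calls among unchanged genes. A 2-fold change sits at the fold threshold itself, so many such genes miss it at any depth or spread. The 23% is therefore not a measure of sensitivity alone. Members and lists were chosen with earlier results of these data known. The genes named were all members and, per list and comparison, up to 3 called genes of largest fold change without overlap; Skp2, Cks1b, Rbl2 and Foxo1 were added after their values were seen. Some genes that the rule selects are not reported here. Exonic lengths came from GENCODE vM21. Alternatives changed the scaling, pseudocount, filter, fold threshold, moderation, groups fitted and libraries.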

Additional observations from a re-analysis of the deposited data

Results flagged for a closer look

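Ccnd1 and Ccnd2 differed between the lymphoma genotypes in their change from WT thymus, tested directly as the Atm-/- against Rag2c/c p53-/- term of the limma fit. The change of Ccnd1 was lower in Atm-/- lymphomas by a log2 difference of -3.93 (adjusted p = 0.0265), and that of Ccnd2 was higher by 2.41 (adjusted p = 0.0286). The ranges of the lymphoma groups overlapped for both genes. The calls were lost in 6 and 7 of 18 alternative settings, both of them when only these groups entered the fit.

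Among Atm-/- lymphomas, lymphoma 2 stood apart for Cdkn2d, at 1642 normalised counts against 940 to 1072 in the others. Its gap to the next library was 0.764 of the group's range, above the critical value of 0.71 for 5 libraries. This was 1 of 20 groups of libraries tested, and chance flags about 1 in 20. Lymphoma 2 was also the shallowest library of its group, where short genes were listed relatively higher. Cdkn2d has 1574 exonic bases, the fewest of the 10 genes, and library 2 was highest for it in every group. The part of depth in this gap was not tested.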

How the results depend on the processing

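Over 500 alternative values of the 30 log2 fold changes (10 genes in 3 comparisons), 449 kept direction and side of the threshold, 21 lost a call, 16 gained one and 14 changed sign. Settings that changed only the filter, groups fitted, fold threshold or moderation left the log2 fold change as it was. Its sign could not change there. Only the 5, 3 and 2 members called in the main fit could lose a call. The cause of a change was not tested where no construction shows it. Without a fold threshold, 8 members were called in Rag2c/c p53-/- lymphomas against WT, where 37.3% of all genes had an adjusted p under 0.05. Of 30 other G1/S genes, 17 were then called in Atm-/- lymphomas against WT and 5 between genotypes (44.6% and 11.6% of all genes). Between genotypes, 0 members were called with only these groups fitted and 0 without the 3 shallowest libraries. Leaving out 1 library gave 0 to 2 members there (0 without Rag2c/c p53-/- lymphoma 5), and 5 to 9 other G1/S genes in Rag2c/c p53-/- lymphomas against WT (5 without lymphoma 4). For fits on fewer groups or libraries, the share of all genes called is not given here. Uncalled values that changed sign were Ccnd1 in Atm-/- lymphomas against WT (0.019 with a pseudocount of 5, 0.48 without the 3 shallowest libraries, -0.97 to 0.73 leaving out 1), Ccnd3 between genotypes (-0.008 with size factors computed again, -0.009 with equal totals, -0.23 without the 3 shallowest, -0.24 to 0.25 leaving out 1) and Cdk6 between genotypes (0.12 without Rag2c/c p53-/- lymphoma 1, otherwise down to -0.45). No paired analysis was possible because lymphoma libraries carry no replicate number in the labels. Where leaving out WT thymuses left 2, the spread was pooled over groups. Depth limits low values: 1 read was worth up to 3.38 normalised counts.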

Other observations

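Within Atm-/- lymphomas Ccnd1 ran opposite to Il2ra, the CD25 gene of early thymocytes, an order noticed after the values were seen and given without a test. Il2ra had 4204, 17248, 50, 9640 and 93 normalised counts in lymphomas 1 to 5, where Ccnd1 had 282, 27, 3068, 41 and 583, so the ranks of the 5 tumors were reversed. Ptcra, the pre-T cell receptor gene, was at 1134, 8050, 143, 5456 and 243 in lymphomas 1 to 5. The rest of the thymocyte stage list did not follow this order. Cd4 was at 8127, 11240, 17284, 1201 and 15187 and Cd8a at 6145, 20872, 9366, 7257 and 5674. Cd8b1 was at 3235, 8612, 7176, 2850 and 4365 and Rag1 at 6304, 5755, 5496, 7116 and 2383. In Rag2c/c p53-/- lymphomas Il2ra was at 234, 138, 1023, 521 and 19, and lymphomas 3 and 4, which had the most Il2ra, had the least Ccnd1 (1290 and 1939). The order was not fully reversed in this group. Lymphoma 5, with the least Il2ra, had 4476 of Ccnd1, less than lymphomas 1 and 2 (5986 and 7248). WT thymuses had 3375 to 3662 of Il2ra and 162 to 299 of Ccnd1.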
